A study of Mus musculus with 12 samples.

Results

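This report describes 9 genes that code for ion channels of sensory neurons, chosen by name from 4 families: Trpv1, Trpv2, Trpa1 and Trpm8 of the transient receptor potential (TRP) family, Asic1, Asic2 and Asic3 of the acid-sensing ion channels, the ATP-gated P2rx3, and the mechanically gated Piezo2. None of the 9 was absent: all were counted in both compartments and all were among the 15990 genes tested, out of 16617 gene names shared by the 2 deposited tables. RNA of neurites was compared with RNA of soma (cell bodies) in cultures of dorsal root ganglion (DRG) neurons from adult mice, and the study's title concerns nucleolin, an RNA-binding protein with a glycine- and arginine-rich (GAR) domain. Each culture came from the ganglia of 1 mouse of background strain C57B6 and grew for 3 days on porous inserts, through which neurites pass while the soma stay above. There were 3 libraries each of GAR+/- neurites, GAR+/+ neurites, GAR+/- soma and GAR+/+ soma, 12 in all, and the genotypes are called het and WT below. The counts are per transcript and not per protein domain, so the genotype labels could not be checked on nucleolin itself. Cells of the dissociated ganglia were recovered through a Percoll cushion, and the labels name no step that removes only non-neuronal cells.

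Nociceptors and other somatosensory neurons use these channels to turn stimuli into membrane current at their peripheral endings. TRP channels open to heat, cold, plant irritants and inflammatory chemicals, acid-sensing channels to extracellular protons, P2X receptors to ATP from damaged cells, and Piezo channels to membrane stretch and touch. The channel proteins act at the nerve terminal, far from the nucleus that makes their mRNA, so the share of each mRNA that reaches the neurite is of interest for where the protein can be made.

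Libraries held between 14965973 and 32434916 counts, with the lowest totals in WT neurite libraries 1 and 2 (14965973 and 15815820). Levels are given as CPM, counts scaled to a library total adjusted by the trimmed mean of M-values, and 3 counts corresponded to 0.0931 to 0.2017 CPM depending on the library. All 10 pan-neuronal markers were present in every library, with a summed level of 7827 to 9462 CPM in het neurites, 5869 to 7966 CPM in WT neurites, 8824 to 10032 CPM in het soma and 7613 to 9208 CPM in WT soma. The 7 markers of satellite glia were also present in every library, at a summed 967 to 1092 CPM in het neurites, 1264 to 1388 CPM in WT neurites, 843 to 930.4 CPM in het soma and 872 to 1115 CPM in WT soma. The 5 fibroblast markers summed to 499 to 1166 CPM in het neurites, 758 to 2571 CPM in WT neurites, 447 to 743 CPM in het soma and 820 to 1632 CPM in WT soma. Schwann cell markers had a mean sum of 608, 577, 666 and 675 CPM in the same 4 groups. The neurite fractions therefore held RNA of glia as well as of neurons, and which cells a channel's counts came from was not measured. In such bulk samples, fewer cells of a type and less RNA per cell cannot be told apart.

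Scaled for transcript length, as TPM computed here from the counts per kilobase of annotated transcript, the 9 genes spanned more than 2 orders of magnitude in a similar order in each group. P2rx3, an ATP-gated channel of nociceptors, was the highest in every group, with 121 ± 26.1 TPM in het neurites, 90.2 ± 24.5 TPM in WT neurites, 132 ± 6.13 TPM in het soma and 118 ± 20.7 TPM in WT soma (mean ± SD, n = 3 each). Asic3, a proton sensor of sensory neurons, came next with 59.2 ± 13.9, 51.3 ± 4.35, 85.1 ± 14.7 and 91.2 ± 26.5 TPM in the same 4 groups. The third was Trpa1, the receptor for mustard oil and other irritants, with 44.2 ± 5.10, 33.0 ± 9.29, 52.6 ± 11.6 and 54.3 ± 14.8 TPM. Libraries of P2rx3 and Asic3 overlapped in WT soma, and those of Asic3 and Trpa1 overlapped in het neurites, so those neighbours did not differ beyond their spread there.

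The middle of the order was held by Asic2 and Piezo2, whose libraries overlapped in all 4 groups. Piezo2, the touch and proprioception channel, had 21.4 ± 5.68, 19.9 ± 0.882, 23.7 ± 1.21 and 26.4 ± 4.94 TPM in het neurites, WT neurites, het soma and WT soma, and Asic2 had 22.0 ± 3.95, 19.3 ± 1.46, 25.3 ± 1.15 and 23.3 ± 2.53 TPM. Trpv2, a relative of the capsaicin receptor, stood between 14.4 and 19.5 TPM on average, beside Asic1 at 13.0 to 22.7 TPM, and these also overlapped in every group. These levels sum coding and noncoding transcripts. The coding Trpv2-201 held a mean of only 2.69% to 4.98% of the Trpv2 TPM over the 4 groups, so the place of Trpv2 is not that of its coding mRNA. Trpv1, the receptor for capsaicin and noxious heat, followed at 12.5 ± 0.801, 9.88 ± 0.50, 16.0 ± 0.451 and 13.6 ± 1.38 TPM. Trpm8, the cold and menthol receptor, was last in every group and below every library of Trpv1, with 1.01 ± 0.341, 0.533 ± 0.0957, 0.918 ± 0.132 and 0.717 ± 0.0753 TPM. With the mean annotated length of each gene's transcripts instead, the first 3 places and the last were the same in every group, and Trpv2 moved to place 8, below Trpv1, in every group.

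**Figure D1:**
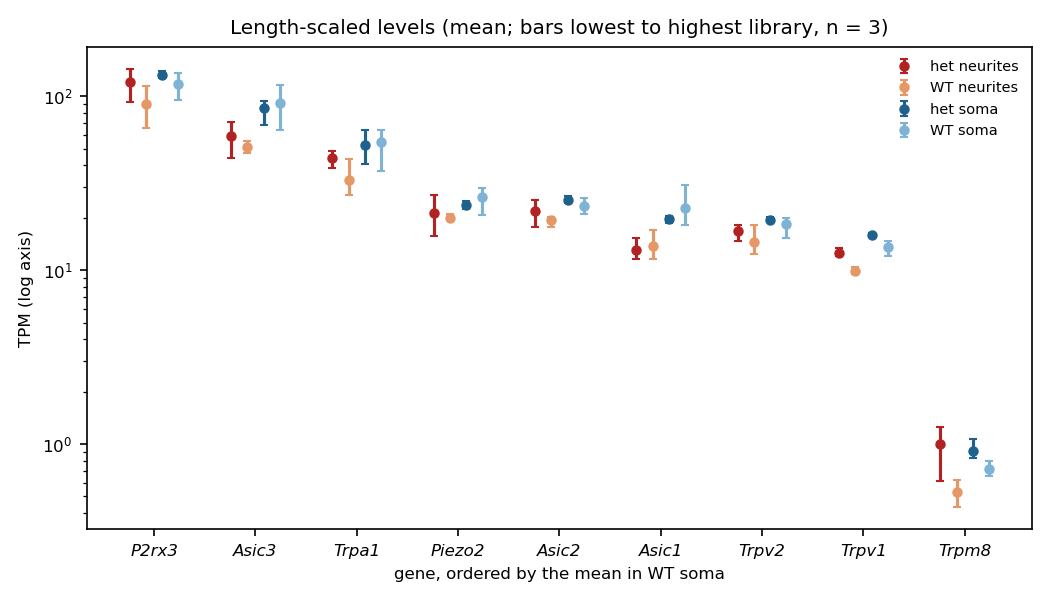
Length-scaled level of each channel gene (TPM, log axis) in het neurites, WT neurites, het soma and WT soma; points are means and bars run from the lowest to the highest of 3 libraries. P2rx3 stood highest, with 118 TPM in WT soma, and Trpm8 lowest, with 0.717 TPM.

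Of the 9 genes, 17 transcripts were counted in both tables. Another 5 were counted in the soma table alone, each at 0 to 13 counts per library, and were left out of all comparisons. The one of these with weight was Trpm8-202, which made up to 17.4% of the Trpm8 counts of a soma library. Trpa1, Trpm8, Asic1 and Asic3 were each represented by 1 transcript in both tables. For the other genes, how reads shared by overlapping transcripts were assigned is not given in the sources used here, so the transcript values carry that uncertainty.

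The transcripts also tell which form of a channel was counted. Asic1-201 codes for 526 amino acids, the form known as ASIC1a. Both forms of Asic2 were counted: Asic2-201, with 563 codons, is ASIC2b, and Asic2-202, with 512 codons, is ASIC2a. ASIC2a forms proton-gated channels by itself, whereas ASIC2b is known to need another ASIC subunit. The 2 forms share their last 983 coding bases and start in different first exons on chromosome 11, so that 706 coding bases belong to ASIC2b alone and 553 to ASIC2a alone. Trpv1-202 is the full-length receptor of 839 codons, and Trpv1-203 is a shorter annotated coding transcript of 471 codons whose coding sequence begins at base 925 of that of Trpv1-202. The 2 Trpv1 forms share their last 1293 coding bases. The first 60 coding bases of these 5 transcripts are printed to show where each coding sequence begins. Those of Trpv1-203 also lie within the coding sequence of Trpv1-202, so they are not particular to the short form. All were read from GENCODE M21 transcripts (GRCm38), with the start codon in capitals.
Asic1-201 (chr15:99671800-99671859, plus strand, exon 2): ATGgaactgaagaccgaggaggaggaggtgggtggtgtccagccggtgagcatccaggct
Asic2-201 (chr11:81152406-81152465, minus strand, exon 1): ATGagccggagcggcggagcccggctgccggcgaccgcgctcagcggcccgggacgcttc
Asic2-202 (chr11:81968125-81968184, minus strand, exon 1): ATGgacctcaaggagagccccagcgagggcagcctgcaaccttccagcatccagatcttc
Trpv1-202 (chr11:73238259-73238318, plus strand, exon 2): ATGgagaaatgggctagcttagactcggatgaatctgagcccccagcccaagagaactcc
Trpv1-203 (chr11:73240562-73240621, plus strand, exon 1): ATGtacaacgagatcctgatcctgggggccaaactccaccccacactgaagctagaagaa
Over these 60 positions, without gaps, the ASIC2a and ASIC2b starts were identical at 20, ASIC1a and ASIC2a at 19, and ASIC1a and ASIC2b at 17.

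ASIC2b was the main Asic2 form everywhere. ASIC2a took 12.1 ± 1.81% of the Asic2 counts in het neurites, 8.96 ± 2.84% in WT neurites, 9.34 ± 0.458% in het soma and 10.1 ± 1.5% in WT soma (mean ± SD, n = 3 each). The short Trpv1-203 took 11.5 ± 0.435% of the Trpv1 counts in het neurites, 8.13 ± 3.93% in WT neurites, 14.7 ± 1.21% in het soma and 13.7 ± 1.58% in WT soma. Most Trpv2 counts lay on transcripts with no annotated coding sequence: Trpv2-203 and Trpv2-204 each took 39.5% to 52.5% of a library's Trpv2 counts, and the coding Trpv2-201 took 7.81 ± 1.25% in het neurites, 4.71 ± 1.37% in WT neurites, 7.72 ± 0.579% in het soma and 8.30 ± 0.957% in WT soma. P2rx3-201, the coding transcript, took 87.9% to 95.1% of a library's P2rx3 counts, and the noncoding P2rx3-205 took 7.27 ± 1.54% in het neurites, 5.07 ± 2.41% in WT neurites, 4.92 ± 0.869% in het soma and 4.77 ± 0.547% in WT soma. Piezo2 counts lay at 93.0% to 95.7% on its full-length transcript Piezo2-202. Scaled for transcript length, as the levels above were, short noncoding transcripts weighed more. The mean share per length was then 70.8% to 77.3% for P2rx3-201 and 17.4% to 24.8% for P2rx3-205 over the 4 groups, 71.0% to 75.0% for Trpv2-203 and 2.69% to 4.98% for Trpv2-201, 81.8% to 83.1% for Piezo2-202, 11.1% to 14.8% for ASIC2a and 10.0% to 17.9% for Trpv1-203.

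The wide spread in WT neurites came from 1 library set against the others. Trpv1-203 took 5.58% (95% Wilson interval 3.15% to 9.72%), 6.16% (3.64% to 10.3%) and 12.7% (9.73% to 16.3%) of the Trpv1 counts in WT neurite libraries 1, 2 and 3. In the same order, ASIC2a took 7.84% (5.64% to 10.8%), 6.86% (4.87% to 9.57%) and 12.2% (9.94% to 14.9%) of the Asic2 counts. P2rx3-205 took 4.33% (3.00% to 6.23%), 3.11% (2.28% to 4.25%) and 7.76% (6.49% to 9.24%) of the P2rx3 counts. For all 3 transcripts, WT neurite library 3 was the highest of its group. That library also had the largest total of its group, 25915003 counts, and the part of depth in these shares was not tested. The intervals and the 3-count floor cover counting error only.

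**Figure D2:**
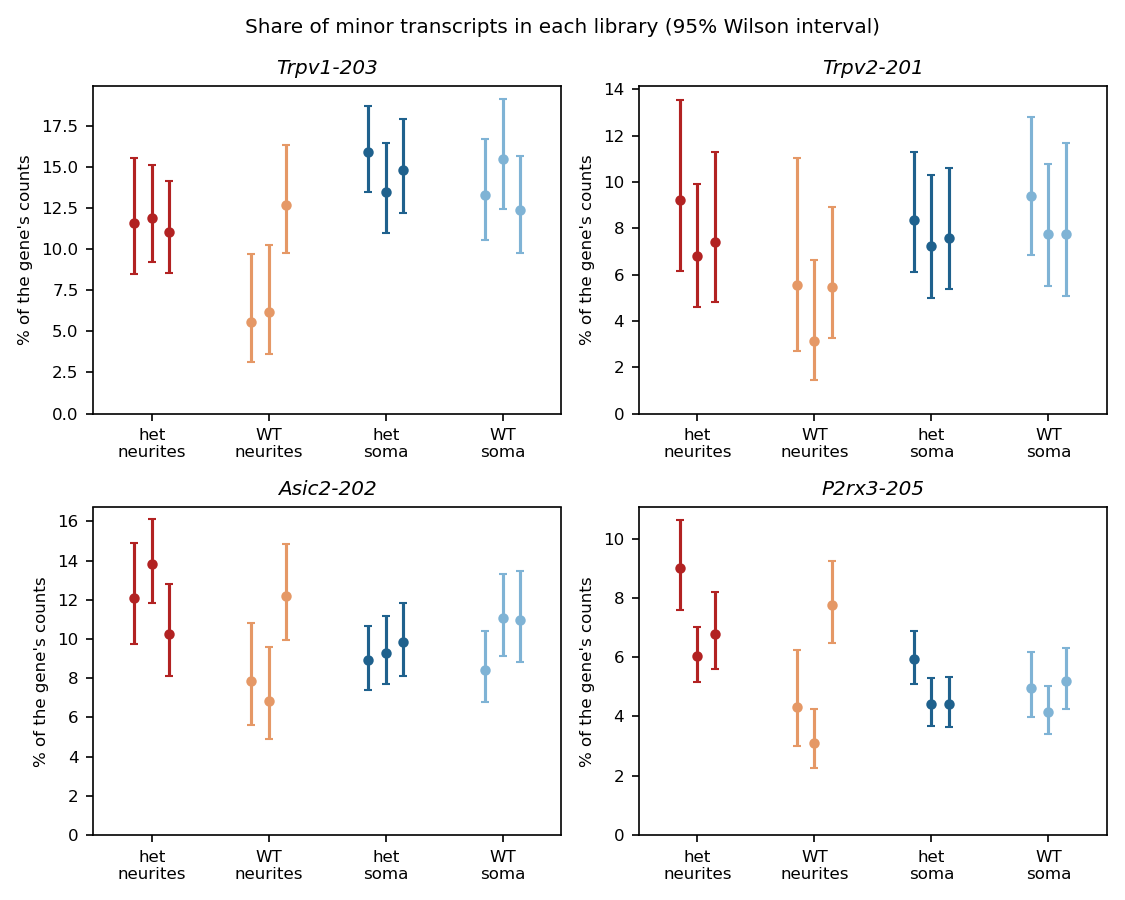
Share of each gene's counts (%) on Trpv1-203, Trpv2-201, Asic2-202 and P2rx3-205 in each of the 12 libraries, grouped as het neurites, WT neurites, het soma and WT soma; bars are 95% Wilson intervals of the counts. In WT neurites, library 3 (the rightmost point) lay above libraries 1 and 2 for Trpv1-203, Asic2-202 and P2rx3-205.

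The comparison of neurites with soma asked whether each channel's level within the RNA of the neurite fraction differed from its level within the RNA of the soma fraction. Each library was scaled to its own total, so the amount of an mRNA, and the share of it that lay in neurites, were not measured. The acid-sensing channels Asic1 and Asic3 had the largest fitted differences in both genotypes. In WT cultures, Asic3 fell 1.70-fold in neurites. It was the only one of the 9 to pass in edgeR's quasi-likelihood test with Benjamini-Hochberg adjustment, fitted without a block. That fit called 110 of 15990 genes (0.688%) lower, 385 (2.41%) higher and 495 (3.1%) in either direction. In het cultures none of the 9 passed in that fit, where 15 genes (0.0938%) were called lower, 87 (0.544%) higher and 102 (0.638%) in either direction. With the same-numbered neurite and soma libraries of a genotype fitted as a block (below, the culture as a block), Asic1 and Trpa1 also passed in WT cultures. Trpv1, Asic1 and Asic3 passed in het cultures with that block, and the counts of all genes called are in the closing section. All 9 fitted values were below 0 in WT cultures, with a median log2 fold change of -0.38 against 0.01 over all genes tested, and 8 of 9 were below 0 in het cultures, with a median of -0.32 against -0.01 over all genes tested.

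Asic3 (ENSMUSG00000038276.12, chr5:24413392-24417835, plus strand of GRCm38) stood at 49.7, 59.9 and 36.9 CPM in het neurites and 74.7, 80.5 and 66.7 CPM in het soma. In WT cultures it stood at 44.6, 42.8 and 39.3 CPM in neurites and 87.1, 76.2 and 52.2 CPM in soma. All neurite libraries were below all soma libraries in both genotypes. The log2 fold change of Asic3, neurites over soma, was -0.77 ± 0.19 (SE) in WT, with an adjusted p of 0.0429 (edgeR), and -0.60 ± 0.18 in het, with an adjusted p of 0.163. The WT call was lost when WT neurite library 1, 2 or 3 or WT soma library 1 or 2 was left out (edgeR adjusted p of 0.0595 to 0.164), and kept without WT soma library 3 (0.0187). With the culture as a block, the WT value was -0.74 with an adjusted p of 0.00107 (edgeR), and the het value -0.62 with 0.00691 (edgeR).

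Asic1 (ENSMUSG00000023017.10, chr15:99670368-99701130, plus strand), the proton-gated channel found across the nervous system, stood at 21.6, 28.4 and 21.6 CPM in het neurites and 35.4, 39.1 and 40.6 CPM in het soma. In WT cultures its levels were 30.2, 23.6 and 21.6 CPM in neurites and 50.8, 33.2 and 34.6 CPM in soma. As for Asic3, neurites and soma did not overlap in either genotype. Its log2 fold change was -0.66 ± 0.17 in WT (edgeR adjusted p = 0.0532) and -0.68 ± 0.17 in het (edgeR adjusted p = 0.0908), both short of the threshold. With the culture as a block the WT value was -0.64 with an adjusted p of 0.00271 (edgeR), and the het value -0.69 with 0.00401 (edgeR).

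Asic2 (ENSMUSG00000020704.13, chr11:80880169-81968457, minus strand) differed less between the compartments. Its levels were 33.0, 37.9 and 26.6 CPM in het neurites and 35.2, 41.4 and 44.3 CPM in het soma. WT neurites had 29.5, 30.4 and 26.5 CPM and WT soma 35.1, 33.6 and 30.9 CPM. The compartments overlapped in het and not in WT, with log2 fold changes of -0.31 ± 0.13 in het (edgeR adjusted p = 0.300) and -0.21 ± 0.13 in WT (edgeR adjusted p = 0.411).

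Among the TRP channels, Trpv1 (ENSMUSG00000005952.15, chr11:73234292-73261242, plus strand) had the tightest libraries. It stood at 17.0, 17.8 and 19.8 CPM in het neurites and 22.8, 23.3 and 27.5 CPM in het soma, and at 13.8, 14.2 and 15.4 CPM in WT neurites and 18.2, 17.3 and 21.2 CPM in WT soma. Neurite libraries lay below soma libraries in both genotypes without overlap. The log2 fold changes were -0.43 ± 0.12 in het (edgeR adjusted p = 0.133) and -0.38 ± 0.13 in WT (edgeR adjusted p = 0.112), neither past the threshold. With the culture as a block, the het value was -0.43 with an adjusted p of 0.0451 (edgeR), and the WT value did not pass. With the replicate number as a block, both passed (edgeR adjusted p of 0.0315 in het and 0.0360 in WT).

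Trpa1 (ENSMUSG00000032769.5, chr1:14872648-14918862, minus strand) had 88.9, 74.4 and 88.4 CPM in het neurites and 117, 80.3 and 121 CPM in het soma. WT neurites had 52.0, 51.7 and 84.1 CPM and WT soma 106, 70.2 and 119.6 CPM. The compartments overlapped in both genotypes, and WT neurite library 3 was again apart from libraries 1 and 2. The log2 fold change was -0.34 ± 0.24 in het (edgeR adjusted p = 0.575) and -0.65 ± 0.24 in WT (edgeR adjusted p = 0.158). It was -0.93 in WT without WT neurite library 3 and -0.23 without libraries 1 and 2. With the culture as a block, the WT value was -0.66 with an adjusted p of 0.00223 (edgeR), neurites being lower than soma in all 3 same-numbered WT pairs.

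Trpv2 (ENSMUSG00000018507.16, chr11:62574486-62600515, plus strand) ranged from 10.6 to 13.5 CPM in het neurites, 8.81 to 12.9 CPM in WT neurites, 13.4 to 18.2 CPM in het soma and 11.5 to 15.5 CPM in WT soma. Its compartments overlapped in both genotypes, with log2 fold changes of -0.32 ± 0.17 in het (edgeR adjusted p = 0.427) and -0.38 ± 0.18 in WT (edgeR adjusted p = 0.244). Trpm8 (ENSMUSG00000036251.16, chr1:88277661-88389293, plus strand) rested on few counts, 39, 61 and 28 in het neurites against 49, 53 and 41 in het soma, and 16, 12 and 26 in WT neurites against 30, 38 and 27 in WT soma. It was the one channel with a fitted value above 0 in het, a log2 fold change of 0.04 ± 0.29 (edgeR adjusted p = 0.967). That sign changed in 3 of 12 alternatives, and Trpm8-202, left out on the soma side, had 5, 2 and 5 counts in het soma. The WT value of Trpm8 was -0.38 ± 0.32 (edgeR adjusted p = 0.552), although the WT libraries of Trpm8 did not overlap between the compartments.

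P2rx3 (ENSMUSG00000027071.14, chr2:84998583-85037462, minus strand) had 72.6, 95.5 and 60.1 CPM in het neurites and 79.9, 98.2 and 105 CPM in het soma. Its WT levels were 43.6, 82.1 and 56.7 CPM in neurites and 57.3, 93.4 and 80.7 CPM in soma. In WT cultures library 1 was the lowest and library 2 the highest on both sides, the compartments overlapped in both genotypes, and the log2 fold changes were -0.31 ± 0.25 in het (edgeR adjusted p = 0.638) and -0.34 ± 0.25 in WT (edgeR adjusted p = 0.487). P2rx3 overlaps 229 bases of Ssrp1 on the opposite strand, and Ssrp1 averaged 20.0 CPM. An annotated antisense gene, 4930453O03Rik, overlaps 5442 bases of Trpm8 and was not counted in both tables. The kit kept the strand, but whether counting used it is not given in the sources used here, so reads of such pairs may not be told apart. Piezo2 (ENSMUSG00000041482.17, chr18:63010213-63387183, minus strand) had 88.5, 117 and 65.0 CPM in het neurites and 98.7, 103 and 113 CPM in het soma. WT neurites had 77.2, 85.1 and 87.9 CPM and WT soma 109, 119.8 and 86.8 CPM. Its compartments overlapped in both genotypes, with log2 fold changes of -0.22 ± 0.17 in het (edgeR adjusted p = 0.632) and -0.33 ± 0.17 in WT (edgeR adjusted p = 0.308).

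Het neurite library 3 was the lowest of its group for Trpv2, Trpm8, Asic2, Asic3, P2rx3 and Piezo2, and het soma library 3 was the highest of its group for Trpv1, Trpv2, Trpa1, Asic1, Asic2, P2rx3 and Piezo2. Without het neurite library 3 the log2 fold change in het was -0.03 for Piezo2, -0.17 for P2rx3, -0.18 for Asic2 and -0.22 for Trpv2, and without het soma library 3 it was -0.15 for Piezo2, -0.22 for P2rx3, -0.23 for Asic2 and -0.18 for Trpv2.

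**Figure D3:**
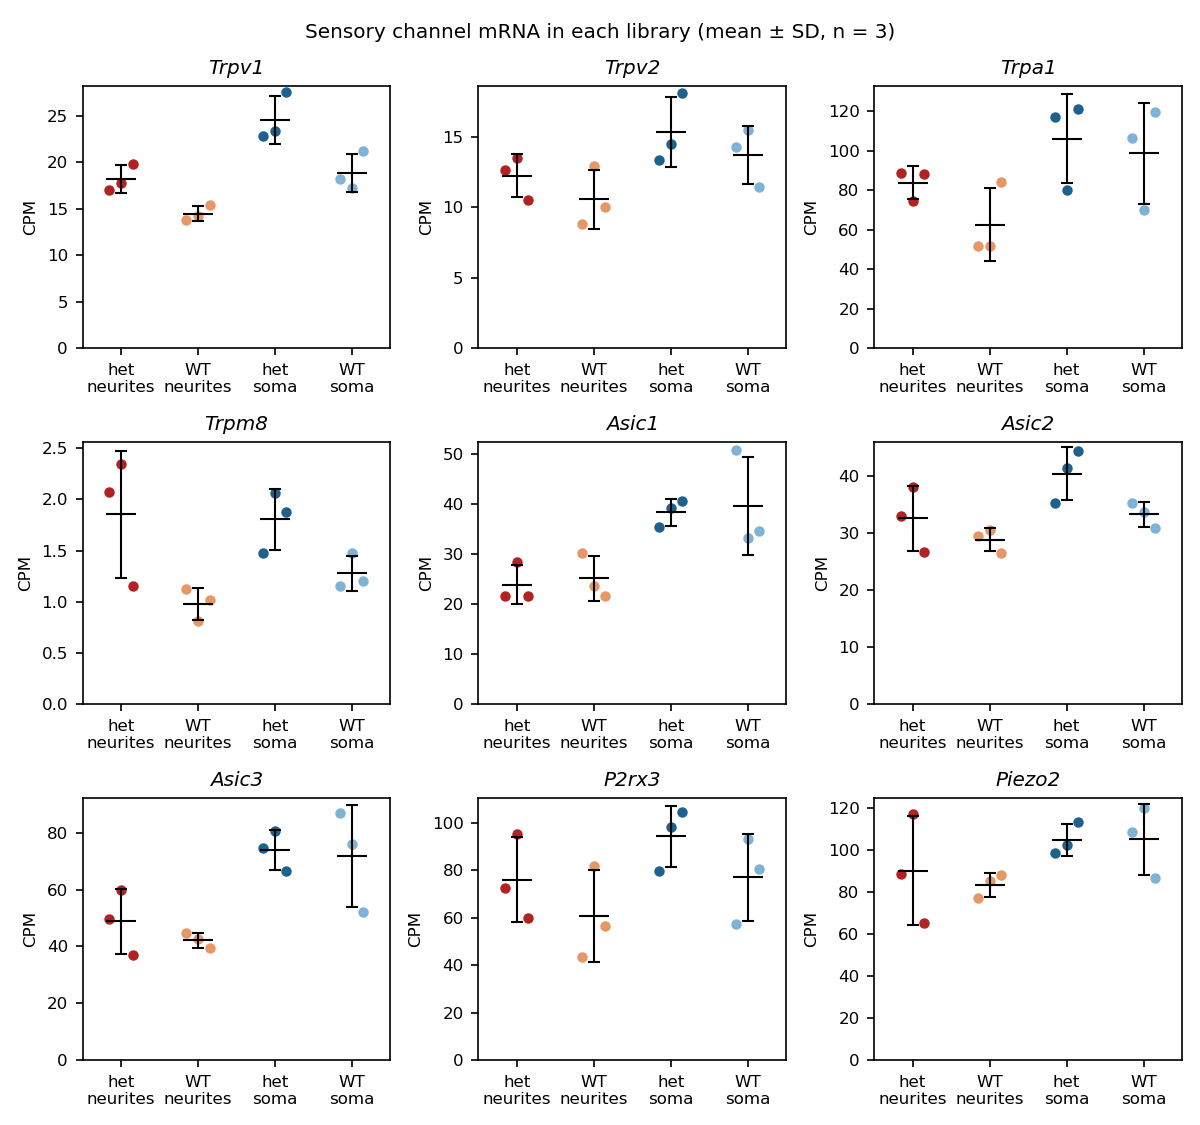
Level of each channel gene (CPM, linear axes from 0) in the 12 libraries; coloured points are libraries 1 to 3 from left to right, and black bars are the mean ± SD of het neurites, WT neurites, het soma and WT soma. Asic1, Asic3 and Trpv1 were lower in all neurite libraries than in all soma libraries of the same genotype.

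In all, 5 of the 9 channels (Trpv1, Trpm8, Asic1, Asic2 and Asic3) had every WT neurite library below every WT soma library, a pattern that 9.96% of all genes tested showed. In het cultures 3 of the 9 did so (Trpv1, Asic1 and Asic3), against 10.6% of all genes. Neuronal markers moved in the same direction. Of the 10 pan-neuronal markers, 2 were called lower in WT neurites (Rbfox3 and Uchl1, with log2 fold changes of -0.60 ± 0.13 and -0.45 ± 0.11), the median log2 fold change being -0.36, and none in het neurites, where the median was -0.15. Of the 8 nociceptor markers, 2 were called lower in WT neurites (median of the 8 -0.46) and 1 in het neurites (median -0.36). Satellite glia markers went the other way, with 2 of 7 called higher in WT neurites (median 0.54) and none in het neurites (median 0.41). Of the other lists, 1 of 7 Schwann cell markers was called higher and 1 of 7 tested markers of large-diameter neurons lower in WT neurites. No tested marker of non-peptidergic neurons (7 of 7 tested), fibroblasts (5 of 5) or endothelium and pericytes (4 of 5) was called in either genotype. The same held for cold-sensing neurons and macrophages, but only 1 of 3 and 2 of 7 of their markers were tested. The part of the cell mixture in the channel values was not tested.

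Relative to the summed pan-neuronal markers, the differences of most channels were smaller. Per 1000 CPM of the 10 pan-neuronal markers, Asic3 had 5.61 ± 1.26 CPM in het neurites and 7.88 ± 0.280 CPM in het soma, and 6.34 ± 1.14 CPM in WT neurites and 8.78 ± 2.44 CPM in WT soma (mean ± SD, n = 3 each). Asic1 had 2.73 ± 0.284 CPM in het neurites and 4.10 ± 0.430 CPM in het soma on that scale, and 3.82 ± 1.17 CPM in WT neurites and 4.89 ± 1.59 CPM in WT soma. The log2 ratios of these means, neurites over soma, were -0.49 in het and -0.47 in WT for Asic3, and -0.59 in het and -0.36 in WT for Asic1. They were -0.33 in het and -0.10 in WT for Trpv1 and between -0.38 and 0.15 for the other 6 genes in either genotype. All 9 channels of a library are divided by the same sum, so this scale moves them together. These ratios are a description and were not tested.

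A contrast over the mean of both genotypes was added after the data were seen, and it uses all 12 libraries. Here 778 of 15990 genes (4.87%) were called lower in neurites, 1172 (7.33%) higher and 1950 (12.2%) in either direction, and 3 of the 9 channels fell. Asic1 had a log2 fold change of -0.67 ± 0.12 (edgeR adjusted p = 0.00353), Asic3 one of -0.68 ± 0.13 (edgeR adjusted p = 0.00572) and Trpv1 one of -0.41 ± 0.09 (edgeR adjusted p = 0.0089). These 3 calls held in all 17 alternatives run for this contrast, including those without each of the 12 libraries. The other 6 did not pass, with -0.35 ± 0.12 for Trpv2, -0.50 ± 0.17 for Trpa1, -0.26 ± 0.09 for Asic2, -0.27 ± 0.12 for Piezo2, -0.33 ± 0.18 for P2rx3 and -0.17 ± 0.21 for Trpm8 (edgeR adjusted p between 0.0745 and 0.660). Since this contrast combines the WT and het values already given, it is not a separate line of evidence.

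**Figure D4:**
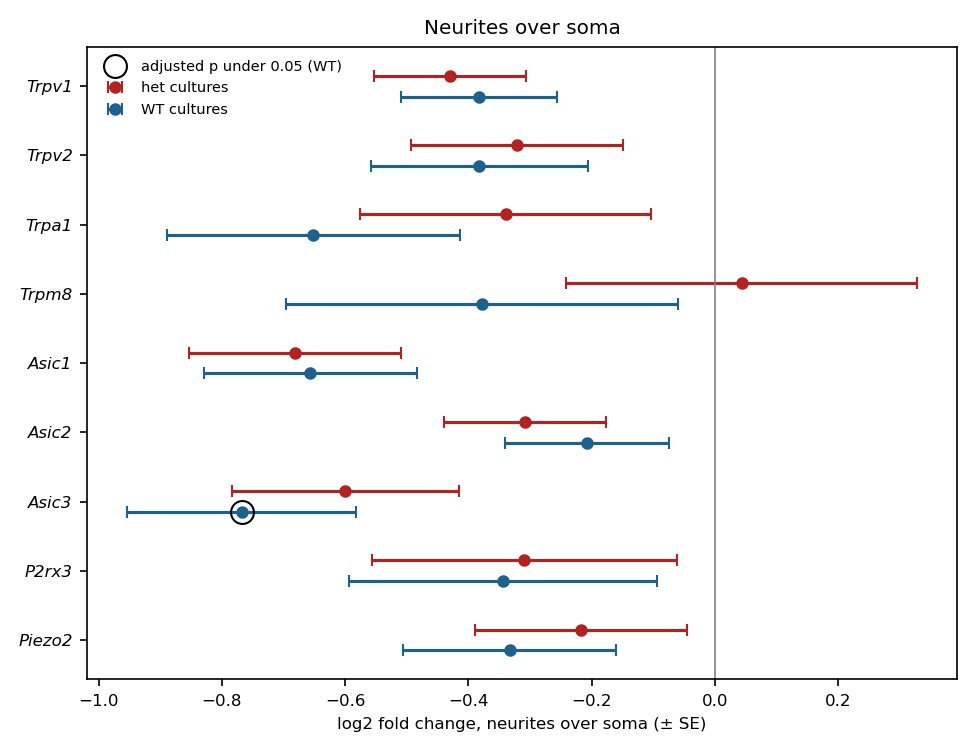
Log2 fold change of neurites over soma for each channel gene in het cultures (upper point) and WT cultures (lower point), with bars of ± 1 SE from edgeR; the open circle marks an adjusted p under 0.05. Asic3 in WT cultures, at -0.77, was the single value to pass in this fit, which has no block, and Trpm8 in het cultures, at 0.04, the single value above 0.

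Per transcript, Asic3 was again called, Asic1 fell just inside the threshold where its gene value had been just outside it, and the 2 Trpv1 transcripts differed in size. Of 29102 transcripts tested, 97 (0.333%) were called lower in WT neurites, 364 (1.25%) higher and 461 (1.58%) in either direction. Among the 17 channel transcripts, 2 were called lower: Asic1-201 with a log2 fold change of -0.66 ± 0.16 (edgeR adjusted p = 0.0463) and Asic3-201 with -0.77 ± 0.17 (edgeR adjusted p = 0.0277). The Asic1-201 call was kept without WT neurite library 1 and lost without each of the other 5 WT libraries in turn, with the DESeq2 size factors and with no filter (edgeR adjusted p of 0.0529 to 0.229). The Asic3-201 call was kept without WT soma library 3 and lost without each of the others (edgeR adjusted p of 0.0526 to 0.140). With the culture as a block, Trpa1-201 (-0.66, edgeR adjusted p = 0.000914) and Trpv1-203 (-1.12, edgeR adjusted p = 0.0222) were called lower in WT neurites as well, and DESeq2 also called both (adjusted p = 0.0392 and 0.0267). In the fit without the block Trpv1-203 had -1.03 ± 0.29 (edgeR adjusted p = 0.0826). In that fit none of the 17 was called in het cultures, where 17 transcripts (0.0584%) were called lower, 132 (0.454%) higher and 149 (0.512%) in either direction. With the culture as a block, Asic1-201 (-0.67, edgeR adjusted p = 0.00203) and Asic3-201 (-0.60, edgeR adjusted p = 0.00419) were called lower in het neurites. How many of all transcripts the block and DESeq2 fits called is not given here. Over genes, both called more than the fit without the block, as given in the closing section. Over the mean of both genotypes, with 723 transcripts (2.48%) called lower, 1354 (4.65%) higher and 2077 (7.14%) in either direction, Trpv1-203 fell with a log2 fold change of -0.89 ± 0.20 (edgeR adjusted p = 0.00839), while full-length Trpv1-202 had -0.32 ± 0.10 (edgeR adjusted p = 0.0535). The Trpv1-203 call held in all 17 alternatives, and the difference between these 2 transcripts was not tested. Trpv1-203 had 37, 55 and 53 counts in het neurites, 11, 13 and 50 in WT neurites, 120, 81 and 89 in het soma and 63, 69 and 59 in WT soma.

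The comparison of het with WT cultures asked whether the channels differed with the GAR genotype in either compartment. None of the 9 passed in neurites, where 523 of 15990 genes (3.27%) were called, 79 (0.494%) higher and 444 (2.78%) lower in het. None passed in soma, where edgeR called 0 of 15990 genes (0%), with 1464 genes at an unadjusted p under 0.05. DESeq2 called 315 genes in soma and edgeR with the replicate number as a block called 520, none of them a channel. The fitted values leaned to het: in neurites 8 of 9 were above 0, their median being 0.22 on the log2 scale against -0.01 over all genes tested, and in soma 7 of 9, their median being 0.15 against 0.01. On the scale per 1000 CPM of pan-neuronal markers this lean was not seen: in neurites 7 of 9 means were lower in het and 2 higher (Trpa1 and Trpm8), with a median log2 ratio of -0.14, and in soma 5 were lower and 4 higher, with a median of -0.02. The libraries of the genotypes overlapped for all 9 channels in both compartments on that scale, which was not tested. That scale divides all 9 channels of a library by the same sum, so it moves them together and cannot show why the fitted values leaned. Pan-neuronal markers leaned the same way in neurites, with 1 of 10 (Uchl1) called higher and a median of 0.38, and so did nociceptor markers, with 1 of 8 (Gal) called higher and a median of 0.24. Of the satellite glia markers 4 of 7 were called lower, with a median of -0.66, and of the Schwann cell markers 2 of 7, with a median of -0.51. The other lists had no calls in neurites, with medians of -0.15 for non-peptidergic neurons (5 of 7 fitted below 0), 0.06 for large-diameter neurons and -0.55 for fibroblasts (4 of 5 below 0). In soma the medians were 0.18 for pan-neuronal, -0.09 for non-peptidergic, -0.49 for satellite glia and -0.60 for fibroblast markers, with none called. The part of the cell mixture in the channel values was not tested here either.

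Trpm8 had the largest fitted difference between the genotypes. Its level was 2.07, 2.34 and 1.15 CPM in het neurites and 1.12, 0.807 and 1.01 CPM in WT neurites, and it was 1.48, 2.06 and 1.88 CPM in het soma and 1.15, 1.47 and 1.20 CPM in WT soma. In these levels all het libraries were above all WT libraries within each compartment, but by small steps. The steps lay between 1.15 and 1.12 CPM in neurites and between 1.478 and 1.472 CPM in soma. The soma values leave out Trpm8-202, which had 5, 2 and 5 counts in het soma and 4, 8 and 1 in WT soma. With it counted, WT soma library 2 would lie above het soma library 1, so the soma order rests on leaving it out. On the TPM scale the neurite libraries overlapped, the lowest het library having 0.616 TPM and the highest WT library 0.625 TPM. The log2 fold change, het over WT, was 0.91 ± 0.31 in neurites (edgeR adjusted p = 0.115) and 0.49 ± 0.29 in soma (edgeR adjusted p = 0.666). Trpv1 had the same order of libraries, with 0.33 ± 0.13 in neurites (edgeR adjusted p = 0.152) and 0.38 ± 0.12 in soma (edgeR adjusted p = 0.276). Asic2 had it in soma alone, with 0.28 ± 0.13 (edgeR adjusted p = 0.549), against 0.18 ± 0.13 in neurites (edgeR adjusted p = 0.477). Such an order with het higher was shown by 7.53% of all genes tested in neurites and 8.86% in soma.

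The remaining channels overlapped between the genotypes in both compartments. Trpa1 had a log2 fold change of 0.42 ± 0.24 in neurites (edgeR adjusted p = 0.345) and 0.10 ± 0.24 in soma (edgeR adjusted p = 0.931). P2rx3 had 0.32 ± 0.25 in neurites and 0.29 ± 0.25 in soma (edgeR adjusted p = 0.494 and 0.792). Asic1 was the one channel with values below 0 in both compartments, -0.07 ± 0.17 in neurites and -0.04 ± 0.17 in soma, each within 1 SE of 0. Trpv2, Asic3 and Piezo2 ranged from -0.00 to 0.22 over both compartments. The interaction term subtracts the WT value of neurites over soma from the het value. It was called for 0 of 15990 genes (0%) by edgeR and by DESeq2, with 202 genes at an unadjusted p under 0.05. The channels had interaction values of -0.10 to 0.42, with an edgeR adjusted p of 1.00 for each.

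**Figure D5:**
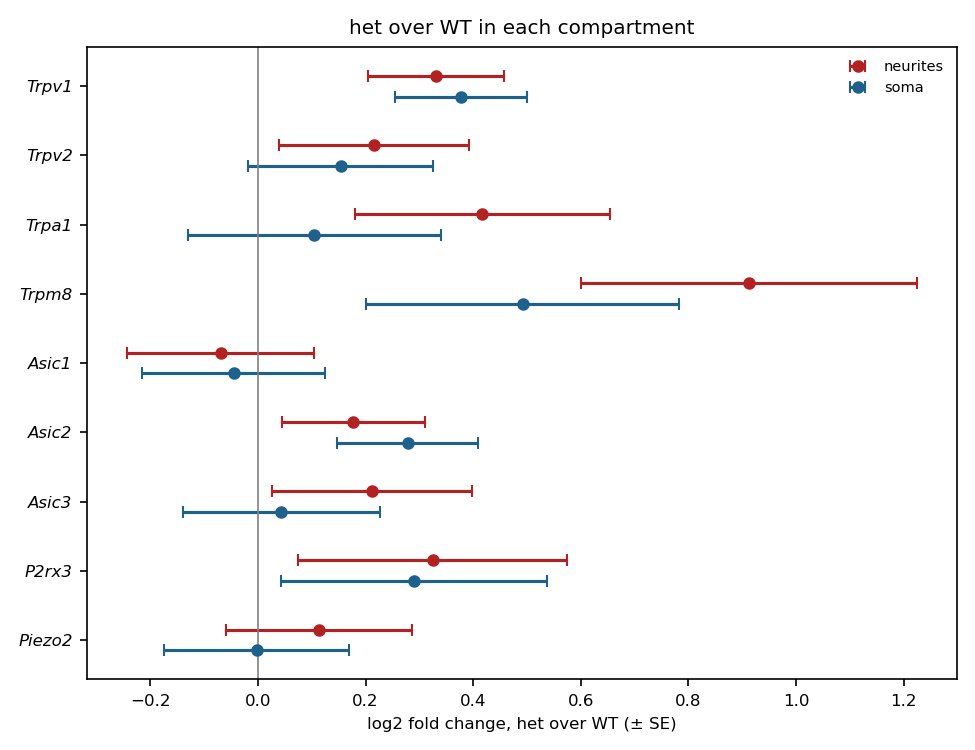
Log2 fold change of het over WT for each channel gene in neurites (upper point) and soma (lower point), with bars of ± 1 SE from edgeR. No value passed an adjusted p of 0.05, and the furthest from 0 was Trpm8 in neurites, at 0.91.

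Of the 17 channel transcripts, none was called between the genotypes in soma, where 19 transcripts (0.0653%) were called, or in neurites, where 465 (1.6%) were. In the authors' deposited table for soma, Trpv1-202 had a log2 fold change of 0.37, het over WT, with a false discovery rate of 0.0357, and no other channel transcript had a rate under 0.05 in either compartment of the authors' deposited tables. The value for Trpv1-202 here was 0.35 ± 0.14 (edgeR adjusted p = 0.542), so the 2 analyses gave a similar size and a different call. In neurites 4 minor transcripts had larger fitted values than the main transcript of their gene. The values were 0.74 ± 0.30 for Trpv1-203 against 0.30 ± 0.14 for Trpv1-202, 0.64 ± 0.25 for ASIC2a against 0.14 ± 0.14 for ASIC2b, 0.86 ± 0.26 for P2rx3-205 against 0.30 ± 0.27 for P2rx3-201, and 0.97 ± 0.37 for Trpv2-201 against 0.23 ± 0.20 and 0.13 ± 0.22 for its noncoding transcripts. The other minor transcripts did not show it: P2rx3-204 had 0.33 ± 0.33, close to P2rx3-201, and Piezo2-203 and Piezo2-207 had -0.00 ± 0.38 and 0.04 ± 0.23, below the 0.13 ± 0.16 of Piezo2-202. None of these values passed (lowest edgeR adjusted p 0.104), and the differences within a gene were not tested. WT neurite libraries 1 and 2 had lower shares of Trpv1-203, ASIC2a and P2rx3-205 than WT neurite library 3, as given above.

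Genes related to the channels by family or function were read from lists, with the number called given for each. Of 24 other TRP channels, 15 were in both tables and 13 were tested. Pkd2, a polycystin of the primary cilium, was the only one called in WT neurites (log2 fold change 0.67 ± 0.16, edgeR adjusted p = 0.0345), and none was called in het neurites. Pkd2 was also the one called between genotypes, with 63.3 ± 15.7 CPM in het neurites and 124 ± 20.0 CPM in WT neurites (-0.97 ± 0.16, edgeR adjusted p = 0.0131). Of 6 other P2X receptors, 4 were tested and none was called between compartments in either genotype alone. P2rx7, an ATP receptor of glia and immune cells, rose in neurites over the mean of both genotypes (0.41 ± 0.12, edgeR adjusted p = 0.0413) and fell in het neurites, with 32.7 ± 8.31 CPM against 60.4 ± 12.3 CPM in WT neurites (-0.89 ± 0.17, edgeR adjusted p = 0.0224). The list of 5 other acid-sensing and degenerin channels had 0 members in both tables, so Asic1, Asic2 and Asic3 were the only members of that family with values here.

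Of 20 other mechanosensitive and thermosensitive channels, 17 were tested and none was called between compartments in either genotype. The smallest p in WT was that of the potassium channel gene Kcnk4 (-0.66 ± 0.18, edgeR adjusted p = 0.0567). Between genotypes, Tmc7 fell in het neurites (-0.64 ± 0.11, edgeR adjusted p = 0.0174), with 38.9 ± 4.93 CPM against 60.5 ± 4.24 CPM in WT neurites. Of 21 partners and regulators of these channels, 18 were tested. In WT neurites 1 was called higher and 1 lower than in soma, and in het neurites 0 were called higher and 1 lower. Fitted values were below 0 for 11 of the 18 in WT and 14 of the 18 in het. Pik3r1, a regulatory subunit of phosphoinositide 3-kinase, rose in WT neurites (0.53 ± 0.10, edgeR adjusted p = 0.0095) and was lower in het neurites than in WT neurites (-0.56 ± 0.10, edgeR adjusted p = 0.0159). The partner list also holds Tmc7, so 2 of its 18 genes were called between genotypes in neurites.

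Of 25 receptors upstream of the channels, 24 were tested. Htr3a, a serotonin-gated channel, was the one called in WT neurites, with 85.6 ± 13.0 CPM in WT neurites and 150.3 ± 22.6 CPM in WT soma (-0.81 ± 0.15, edgeR adjusted p = 0.0137). It had -0.66 ± 0.15 in het (edgeR adjusted p = 0.0648), where none of the 24 was called. Between genotypes none of the 24 was called in either compartment. In soma, none of the tested genes of any of these lists was called between genotypes. The calls between genotypes in neurites come from the fit over all 12 libraries. With the 6 neurite libraries alone, or without het neurite library 2 or 3 or WT neurite library 3, edgeR called 0 genes there.

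The likeness of a pair of genes was taken as the root mean square (RMS) difference of their log2 CPM over the 12 libraries, each gene centred on its own mean, among 7240 other genes with at least 10 CPM on average. The nearest to Asic1 was Chrna7, a nicotinic acetylcholine receptor subunit, at an RMS of 0.0943, followed by Nptx1 and Prokr1. Those nearest to Asic3 were Susd2, Clu and Epha6, at 0.110 to 0.124. Nearest to Trpv1 were Crlf2, Pkm and Susd4 (0.114 to 0.123), to Trpa1 Arxes1, Gpr149 and Amigo2 (0.158 to 0.189), and to P2rx3 Slc7a14, Mmp25 and Ptprn (0.0914 to 0.101). Among the nearest to Piezo2 were Lrig2 and Tmem63b (0.0898 and 0.0926), to Asic2 Unc13a, Fry and Cpe (0.0783 to 0.0864) and to Trpv2 Brinp2 and Prune2 (0.0789 and 0.0965). Trpm8 was nearest to Plagl1, Gal and Cep126 (0.172 to 0.198). Among the 9 channels themselves, the closest pair was Trpv2 and Asic2 at 0.143, and Asic1 was nearest to Asic3, at 0.21. The least alike were Trpa1 and P2rx3, at 0.47. All of these values share libraries and depths and are a description.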

How the data were processed

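RNA of 12 libraries (3 per combination of genotype and compartment) was sequenced from stranded, ribosome-depleted libraries, per the labels' protocols. The authors deposited a table of raw counts per Ensembl transcript for each compartment, in which every transcript reached 5 counts in 3 or more libraries. Beside them the authors deposited their own edgeR log2 fold changes (het over WT), p-values and false discovery rates, per the file headers. CASAVA 1.8.2, edgeR and the mm10 (GRCm38) genome are named in the submitters' processing notes, while neither aligner nor counter is given in the sources used here. The remaining 24 per-sample columns were not used here.

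The 31420 named transcripts found in both tables were added up to 16617 genes. Transcripts without a gene name held 0.574% to 0.694% of a library's counts and were left out. After filterByExpr and TMM scaling, a robust edgeR quasi-likelihood fit (edgeR 4.0.16, R 4.3.3) gave each group 1 mean and all 12 libraries a shared estimate of spread. P-values were adjusted by Benjamini-Hochberg over all 15990 genes, 2-sided, at 0.05. SE is the size of the log2 fold change divided by the square root of F. Transcripts were fitted the same way. The fit was tested on simulated data. Lengths and positions came from GENCODE M21 (GRCm38), which held 97.61% of the transcripts. TPM was computed from counts per transcript length.

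Named genes are the 9 channels, their 3 nearest genes, and up to 3 called members of each list, or the 1 with the smallest p. A few genes that this rule names are not reported here. The members and lists were chosen with earlier results of these data known. Neurites and soma with the same WT number deviated together (correlation over genes 0.278, 0.341 and 0.230). So did het and WT soma (0.222, 0.273 and 0.159), which came from different mice, while het and WT neurites had 0.142, 0.224 and -0.0373. A shared number therefore need not mean a shared culture, and the culture block joins libraries of 1 genotype by number alone. That libraries came from 3 independent repeats is per the labels. Alternatives were DESeq2 1.42.0, other size factors, no filter, replicate blocks, only the groups compared, each compartment's own table, and leaving out each library.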

Additional observations from a re-analysis of the deposited data

How the results depend on the processing

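No channel called in any comparison changed sign under an alternative. For WT neurites over WT soma, 495 genes and 1 channel became 1106 and 3 with DESeq2, 40 and 0 with the WT libraries alone, 1510 and 4 with the replicate number as a block, 1489 and 3 with the culture as a block, 0 channels without WT neurite libraries 1 and 2 (an alternative chosen after seeing the data), and 93 to 1081 genes and 0 to 1 channels with 1 library left out. For het neurites over het soma, 102 genes and 0 channels became 488 and 3 with DESeq2, 668 and 3 with the replicate number as a block, and 671 and 3 with the culture as a block. With 1 library left out they became 0 to 191 genes and 0 to 1 channels (0 genes without het neurite library 1 or het soma library 1 or 2). With the het libraries alone 1 channel passed (Asic1, edgeR adjusted p = 0.0442), and the number of all genes called there is not given here. The 3 channels of the DESeq2 and block fits were Trpv1, Asic1 and Asic3. As in WT, het neurites and soma are known to share only a number, their correlations being 0.205, 0.256 and 0.0504, though each library correlated best with its own number. For het over WT in soma, 0 genes became 315 with DESeq2, 388 in the soma table alone, 388 with the soma libraries alone and 520 with the replicate block, with 0 channels in each. For het over WT in neurites, 523 genes became 1199 with DESeq2, 0 in the neurite table alone, 0 with the neurite libraries alone, 1696 with the replicate block, which called 1 channel (Trpa1, 0.45, edgeR adjusted p = 0.0300), and 0 to 1767 with 1 library left out (0 without het neurite library 2 or 3 or WT neurite library 3). For the mean of both genotypes, 1950 genes and 3 channels became 2663 and 5 with DESeq2, 3183 and 7 with the replicate block, and 3066 and 7 with the culture block. With 1 library left out they became 1093 to 2746 genes and 3 to 5 channels. Interaction counts were 0 throughout. Over single channels, transcripts and levels, 2035 values under alternatives kept their direction and side of the threshold or moved within the replicate spread, 71 came to pass the threshold, 21 no longer passed, and 16 levels moved with the mean transcript length. The causes were not tested. Depth limits Trpm8 most, at 12 to 61 counts per library, and a p past the threshold in one genotype alone does not show that the genotypes differ.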
